A study of Mus musculus with 10 samples.

Results

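The chemokines described here are those that natural killer cells (NKC) are known to make or that belong to the same gene clusters: Ccl1, Ccl3, Ccl4, Ccl5, Ccl6, Ccl9 and Xcl1. They were chosen by name, as the probe sets to which the annotation of the array platform gives 1 of these 7 gene symbols. This found 9 of the 45101 probe sets and 7 of the 18194 genes that had a probe set with a single symbol. Ccl6 and Ccl9 each had 2 probe sets and the other genes had 1, and the probe set with the highest mean over the 10 arrays stood for its gene.

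RNA was measured on Affymetrix mouse arrays in cultured spleen NKC of ICR mice aged 6 weeks, male or female, with each sample from its own mouse. The groups were Runx3-/- (KO) NKC in IL-2 (3 arrays), Runx3+/+ (WT) NKC in IL-2 (3 arrays), KO NKC in IL-15 (2 arrays) and WT NKC in IL-15 (2 arrays). All cells were enriched from spleen by negative selection, which the methods extend with a sort for DX5, and then grown for 7 days in either of the cytokines, human IL-2 at 1000 u/ml or IL-15 of the mouse. The Runx3 deletion was carried by the whole mouse, not by NKC alone, and no group had uncultured cells. Values are log2 signals, so a difference of 1 is a 2-fold change. In the deposited values the KO and the WT array of one number mirrored each other around the mean of their cytokine, so both groups have the same SD by construction and a KO effect is the mean of 3 pair differences in IL-2 or of 2 in IL-15. KO and WT arrays thus fail to overlap wherever all pair differences share a sign, and this adds nothing to those signs. The share of all tested genes without overlap was not counted.

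The medians of the arrays ran from 3.20 to 3.37. On each array 34.6% to 36.7% of the probe sets were at or above log2 5, the level used here as a floor for a measured signal. Of 11 NKC markers, 10 reached log2 5 on all 10 arrays, among them Ncr1 (the receptor NKp46), Nkg7 and Gzmb. The exception was Itga2, which encodes DX5, with a highest value of 2.45. Of the 10, Ncr1 and Tbx21 rose and Prf1 (perforin) fell in KO NKC in IL-2, beside 19.7% of all tested genes called and 10.5% that rose. Ncr1 averaged 11.69 in KO and 9.58 in WT (4.33-fold, adjusted p = 0.017), and Prf1 averaged 13.12 in KO and 14.85 in WT (adjusted p = 0.0217). Neither was called without pair 1 or without pair 3. The brighter Runx3 probe set averaged 11.07 in KO and 11.65 in WT NKC in IL-2, with a KO effect of -0.58 ± 0.76 (SD, 3 pairs) and an adjusted p of 0.254. It averaged 11.38 in KO and 12.48 in WT NKC in IL-15 (adjusted p = 0.293). Where this probe set lies relative to the deleted part is not known, so it does not check the genotype.

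Chemokines are small secreted proteins that bind G protein-coupled receptors and direct the migration of leukocytes along a gradient. NKC store and release several of them on activation, and thereby call other cells to the site of a response. Ccl3, Ccl4 and Ccl5 are the inflammatory CC chemokines typical of cytotoxic lymphocytes and draw T cells and monocytes. Xcl1, or lymphotactin, is a C chemokine with a single disulfide bond that draws cross-presenting dendritic cells through Xcr1. Ccl1 acts on Ccr8, and Ccl6 and Ccl9 are rodent CC chemokines made mainly by myeloid cells that act on Ccr1. Runx3 is a RUNX transcription factor that both represses and activates genes in cytotoxic lymphocytes.

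Along mouse chromosome 11 the protein-coding genes Ccl5, Ccl9, Ccl6, Ccl3 and Ccl4 are direct neighbours in this order, with Heatr9 on one side and Wfdc17 on the other. Ccl1 lies in another cluster of that chromosome, beside Ccl8, Ccl12, Ccl11, Ccl7 and Ccl2, and Xcl1 lies on chromosome 1. Promoter windows of 300 bases (250 before to 50 after the start) were at hand in RefSeq for 5 of the 7 genes, which leaves out Ccl4 and Ccl5. The 4 windows that hold a RUNX motif are shown because Runx3 is the deleted factor. They are printed in the direction of the gene, which for all of them is the minus strand of GRCm38.p6, and the capitals mark the RUNX matches.
Xcl1, chr1:164935473-164935772: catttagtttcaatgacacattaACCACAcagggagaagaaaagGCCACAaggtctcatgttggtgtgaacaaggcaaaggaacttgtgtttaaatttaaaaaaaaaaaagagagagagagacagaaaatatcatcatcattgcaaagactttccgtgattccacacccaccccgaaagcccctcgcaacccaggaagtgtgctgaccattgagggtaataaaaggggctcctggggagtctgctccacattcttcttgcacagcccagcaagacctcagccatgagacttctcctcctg
Ccl1, chr11:82179763-82180062: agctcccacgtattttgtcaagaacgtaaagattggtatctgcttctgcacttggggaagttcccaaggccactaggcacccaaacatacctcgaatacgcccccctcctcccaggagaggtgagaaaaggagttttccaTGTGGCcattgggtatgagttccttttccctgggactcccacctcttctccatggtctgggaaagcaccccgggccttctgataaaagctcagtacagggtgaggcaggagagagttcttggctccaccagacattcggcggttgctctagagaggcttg
Ccl3, chr11:83649329-83649628: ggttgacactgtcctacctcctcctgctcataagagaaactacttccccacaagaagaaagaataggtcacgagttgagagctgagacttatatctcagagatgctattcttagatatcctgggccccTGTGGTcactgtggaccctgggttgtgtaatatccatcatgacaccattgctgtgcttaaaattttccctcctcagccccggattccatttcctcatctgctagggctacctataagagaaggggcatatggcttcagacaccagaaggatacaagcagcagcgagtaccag
Ccl9, chr11:83578587-83578886: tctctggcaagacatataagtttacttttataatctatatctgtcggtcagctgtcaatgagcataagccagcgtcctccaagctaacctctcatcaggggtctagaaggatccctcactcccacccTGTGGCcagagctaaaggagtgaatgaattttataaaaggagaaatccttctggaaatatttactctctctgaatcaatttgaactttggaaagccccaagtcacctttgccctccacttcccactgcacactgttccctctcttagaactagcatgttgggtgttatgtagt
The RUNX motifs were searched on both strands, namely TGTGGT with its variant TGTGGC and the forms of both that have C as the third base, TGCGGT among them. A match is a description of the letters, not of binding. Xcl1 held 2 matches, both on the opposite strand, with their first printed base at -227 (TGTGGT) and -206 (TGTGGC). Ccl3 held TGTGGT at -122, while Ccl1 and Ccl9 held TGTGGC at -110 and -123. Of all 32851 promoter windows of this length, 45.2% held at least 1 of the 4 RUNX motifs, 16.8% held TGTGGT and 18.9% held TGTGGC. The AP-1 motif TGANTCA was found in Ccl9 alone of the 5 windows, at -53, against 7.81% of all windows. The NF-kB motif, which 50.8% of all windows hold, was found in Ccl9 at -35 and in Ccl1, where a match on each strand overlapped at -196 and -195.

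The first question was whether loss of Runx3 altered the chemokines of NKC grown in IL-2. Ccl1, Ccl3, Ccl5 and Xcl1 rose in KO NKC, by 2.99-fold to at least 12.3-fold. Ccl9 and Ccl4 did not pass the test, and Ccl6 was too dim to be tested. A gene was called at an adjusted p under 0.05 with a change of at least 1.5-fold, and it was tested where its probe set reached log2 5 on at least 2 arrays. Of the 6 chemokines tested, 4 rose and 0 fell, while 19.7% of the 9391 tested genes were called and 10.5% rose. The median KO effect was 2.10 over these 6 genes and 0.11 over all tested genes. In such bulk samples, more RNA per cell and more cells that make it cannot be told apart.

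**Figure D1:**
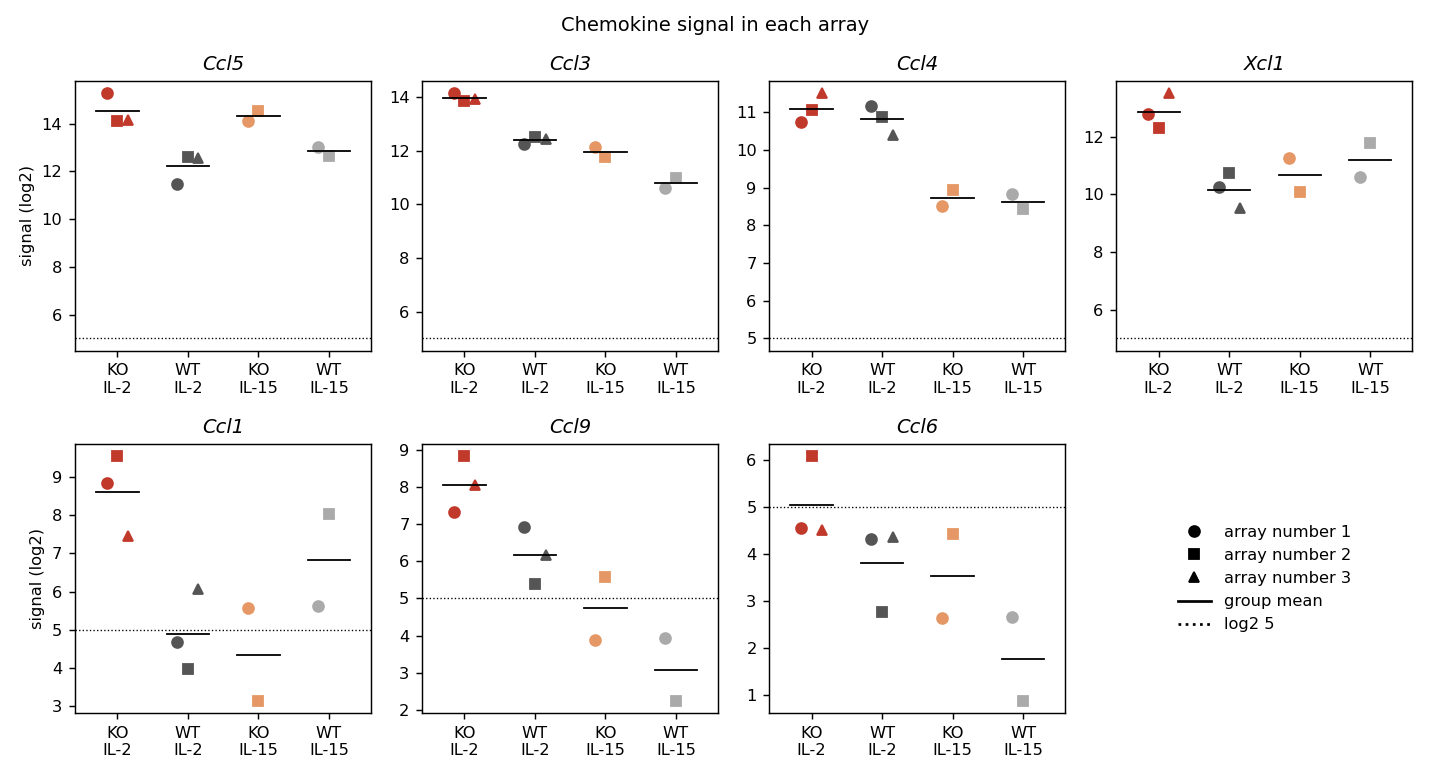
Signal (log2) of each chemokine gene on each of the 10 arrays, by group, with the array number as the marker shape, the group mean as a line and log2 5 dotted. In IL-2 the KO arrays of Ccl5, Ccl3, Xcl1, Ccl1, Ccl9 and Ccl6 lie above the WT arrays, while those of Ccl4 overlap with them.

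Ccl5, also known as RANTES (probe set 1418126_at), reached 15.27, 14.10 and 14.15 in KO NKC in IL-2 (arrays 1, 2 and 3), against 11.45, 12.62 and 12.57 in WT NKC. The pair differences of 3.82, 1.49 and 1.59 were all above 0, and pair 1 stood further apart than the others. The means were 14.51 ± 0.66 in KO and 12.21 ± 0.66 in WT (SD, n = 3 each), a 4.92-fold rise. The KO effect of 2.30 (95% interval 1.14 to 3.46) had an adjusted p of 0.0211. Without pair 1 the effect was 1.54 and the adjusted p 0.0633, so the call rests on that pair.

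Ccl3, or MIP-1 alpha (1419561_at), gave the most even response of the pairs. It reached 14.15, 13.87 and 13.94 in KO and 12.24, 12.52 and 12.45 in WT NKC in IL-2. The pair differences were 1.90, 1.35 and 1.49. The KO effect of 1.58 ± 0.29 (SD, 3 pairs) was 2.99-fold, with an interval of 0.94 to 2.22 and an adjusted p of 0.0106. Without pair 1 the effect was 1.42 with an adjusted p of 0.0716.

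Ccl4, or MIP-1 beta (1421578_at), is the direct neighbour of Ccl3 and shares its target cells, but its values differed less between genotypes. It gave 10.73, 11.05 and 11.50 in KO and 11.17, 10.86 and 10.40 in WT NKC in IL-2. The groups overlapped, and the pairs differed in sign, with -0.44, 0.19 and 1.09. The KO effect of 0.28 had an interval of -0.56 to 1.13 (adjusted p = 0.608), which leaves room for a change of either sign, and it was -0.12 without pair 3.

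Xcl1 (1419412_at) reached 12.79, 12.29 and 13.51 in KO NKC in IL-2, against 10.24, 10.74 and 9.52 in WT NKC. The pair differences of 2.55, 1.54 and 3.99 were all above 0, and pair 3 had the widest gap. The means of 12.86 ± 0.62 in KO and 10.17 ± 0.62 in WT differed 6.47-fold, with a KO effect of 2.69 (interval 1.32 to 4.07) and an adjusted p of 0.0221. The call was lost without pair 1 (2.77, adjusted p = 0.108) and without pair 3 (2.04, adjusted p = 0.0723).

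Ccl1 (1421688_a_at), a chemokine of activated T cells, had the highest KO effect of the 7 genes and also the widest spread. It gave 8.85, 9.55 and 7.46 in KO and 4.67, 3.97 and 6.06 in WT NKC in IL-2. The pair differences of 4.18, 5.58 and 1.40 were all above 0, although 2 of the 3 WT arrays were under log2 5. The mean in KO was 8.62 ± 1.06 and that in WT 4.90 ± 1.06, which gives at least a 12.3-fold rise when WT is set to log2 5. The KO effect of 3.72 had an interval of 1.25 to 6.18 and an adjusted p of 0.0485, close to the threshold. It was not called without pair 1 (3.49, adjusted p = 0.206), without pair 2 (2.79, adjusted p = 0.196) or with every probe set tested on its own (adjusted p = 0.0503).

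Ccl9, or MIP-1 gamma, is known from macrophages and other myeloid cells. Its brighter probe set (1417936_at) gave 7.32, 8.84 and 8.06 in KO and 6.92, 5.40 and 6.18 in WT NKC in IL-2. No pair difference was below 0, but the pairs ranged widely, with KO effects of 0.40, 3.44 and 1.87. The mean effect of 1.91 had an interval of 0.13 to 3.69 and an adjusted p of 0.117, and with no replicate block the adjusted p was 0.0388. The other probe set of Ccl9 (1448898_at) stayed under log2 5 on every array, with means of 3.19 in KO and 2.53 in WT NKC in IL-2.

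Ccl6 was the dim member of the group and was not tested. The probe set of highest mean (1420249_s_at, of a type that can match related transcripts) gave 4.54, 6.08 and 4.51 in KO and 4.31, 2.77 and 4.35 in WT NKC in IL-2, so 1 array reached log2 5. Pair 2 had a KO effect of 3.31, against 0.23 in pair 1 and 0.16 in pair 3. In the other probe set (1417266_at) pair 2 was again the one that stood apart, with KO effects of -0.02, 5.44 and 0.00 in pairs 1, 2 and 3.

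**Figure D2:**
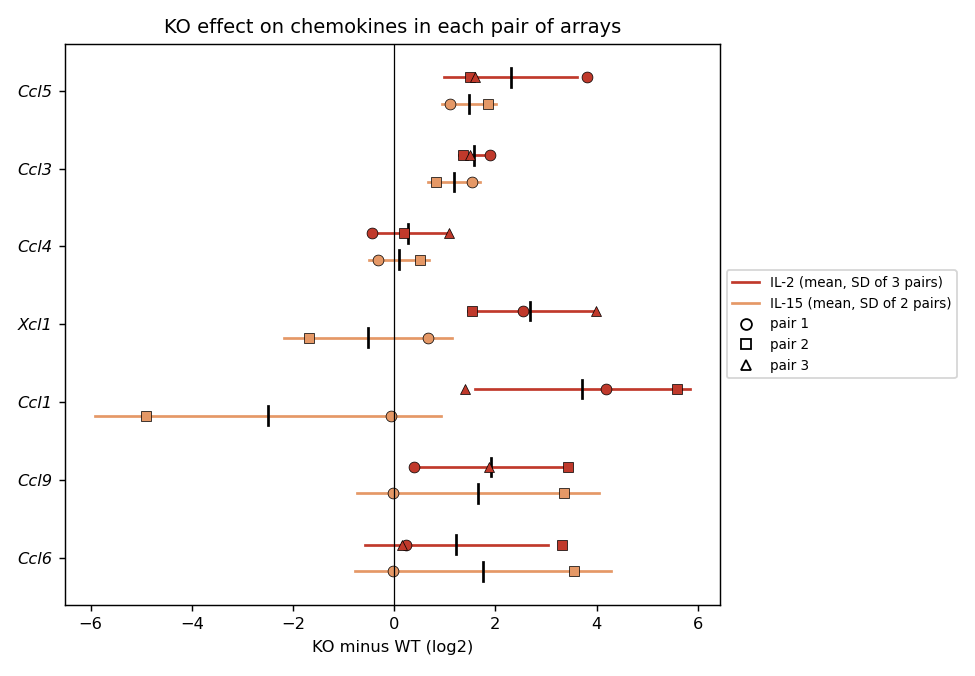
KO minus WT difference (log2) of each chemokine in each numbered pair of arrays, for IL-2 (3 pairs) and IL-15 (2 pairs), with the mean as a tick and the SD over pairs as a line. All pairs of Ccl5 and Ccl3 lie above 0 in both cytokines, while Xcl1 and Ccl1 lie above 0 in every IL-2 pair but not in IL-15.

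The same comparison in IL-15 had 2 pairs. None of the 6 tested chemokines was called by limma, and Ccl3 and Ccl5 were the 2 with an unadjusted p under 0.05. Few genes were called at all in IL-15, 1.3% of the 9391, with 43 higher and 79 lower in KO (41 and 47 after quantile normalization). The median KO effect was 0.63 over the 6 chemokines and -0.01 over all tested genes.

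Ccl5 gave 14.13 and 14.51 in KO and 13.03 and 12.65 in WT NKC in IL-15 (arrays 1 and 2), with pair differences of 1.10 and 1.85. The KO effect was 1.48 ± 0.53 (SD, 2 pairs; interval 0.06 to 2.89; adjusted p = 0.344). Ccl3 gave 12.15 and 11.79 in KO against 10.61 and 10.97 in WT, with pair differences of 1.54 and 0.82. Its effect of 1.18 ± 0.51 had an interval of 0.40 to 1.96 and an adjusted p of 0.169, or 0.00608 with no replicate block. Ccl4 gave 8.51 and 8.93 in KO and 8.84 and 8.42 in WT, and these overlapped (effect 0.09, interval -0.95 to 1.12).

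Xcl1 and Ccl1, both higher in KO in every IL-2 pair, gave other values in IL-15. Xcl1 had 11.27 and 10.10 in KO and 10.62 and 11.79 in WT, and the pairs had opposite signs, 0.66 and -1.69. Ccl1 had 5.56 and 3.13 in KO against 5.62 and 8.04 in WT. Both pairs were below 0, at -0.06 and -4.91, so that the mean of -2.49 came almost wholly from pair 2 (interval -5.50 to 0.53, adjusted p = 0.469). The KO effect in IL-15 minus that in IL-2 was -6.20 for Ccl1 (interval -10.1 to -2.31) and -3.21 for Xcl1 (interval -5.39 to -1.03). These differences had unadjusted p-values of 0.00719 and 0.0104 by limma and adjusted p-values of 0.301 and 0.313, so neither was called. No gene was called in this test, 0% of the 9391, while 1106 had an unadjusted p under 0.05. For Ccl3, Ccl4, Ccl5 and Ccl9 the difference lay between -0.82 and -0.20, with intervals that all held 0.

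Ccl9 gave 3.89 and 5.58 in KO and 3.92 and 2.23 in WT NKC in IL-15, where 1 of the 4 arrays reached log2 5. Ccl6 gave 2.63 and 4.42 in KO against 2.66 and 0.87 in WT, all under log2 5. For both genes pair 1 was near 0 (-0.03 each) and pair 2 high, at 3.35 for Ccl9 and 3.55 for Ccl6. Pair 2 was thus the one with the highest KO effect of both genes in IL-2 and in IL-15. The pair numbers do not link IL-2 arrays to IL-15 arrays.

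Markers of macrophages were set beside these pairs, since Ccl6 and Ccl9 are chiefly myeloid products. The lysozymes Lyz1 and Lyz2 were also highest in pair 2, with KO effects of 7.33 and 5.82 in IL-2 and 5.35 and 5.08 in IL-15. In pair 1 in IL-2 they had 6.00 and 3.32 and in pair 3 -0.09 and -0.45, where Ccl9 had 0.40 and 1.87. In pair 1 in IL-15 Lyz1 and Lyz2 had 5.04 and 1.99, where Ccl9 and Ccl6 had -0.03 each. Csf1r, the receptor of macrophage colony-stimulating factor, was higher in KO in pair 2 alone, by 1.79 in IL-2 and 3.81 in IL-15. Cd14 had negative KO effects in all 3 IL-2 pairs and fell by 3.88 (adjusted p = 0.0494). In IL-15 its pairs 1 and 2 had -1.66 and 1.83. Cd68 had KO effects of -0.38, 3.07 and 0.99 in the IL-2 pairs and -2.27 and -1.14 in the IL-15 pairs. Of the 10 macrophage and monocyte markers named, 6 were tested, 0 rose and 1 fell in IL-2, beside 19.7% called over all tested genes. The Cd14 call was lost without any 1 pair other than IL-2 pair 2. Without IL-2 pair 1 none was called, and without IL-2 pair 3 the 2 calls were Lyz1 and Lyz2, both higher in KO. In IL-15 none was called by limma, and 2 had an unadjusted p under 0.05. Mrc1, Marco and Fcgr1 stayed under log2 5 on every array, and the macrophage marker Adgre1 had a highest value of 5.31. The summed level of the markers was 9.32 to 12.15 (log2) in KO and 8.16 to 10.81 in WT NKC in IL-2, and 8.64 to 9.47 in KO and 8.82 to 9.55 in WT NKC in IL-15. Their part in the Ccl6 and Ccl9 values was not tested.

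**Figure D3:**
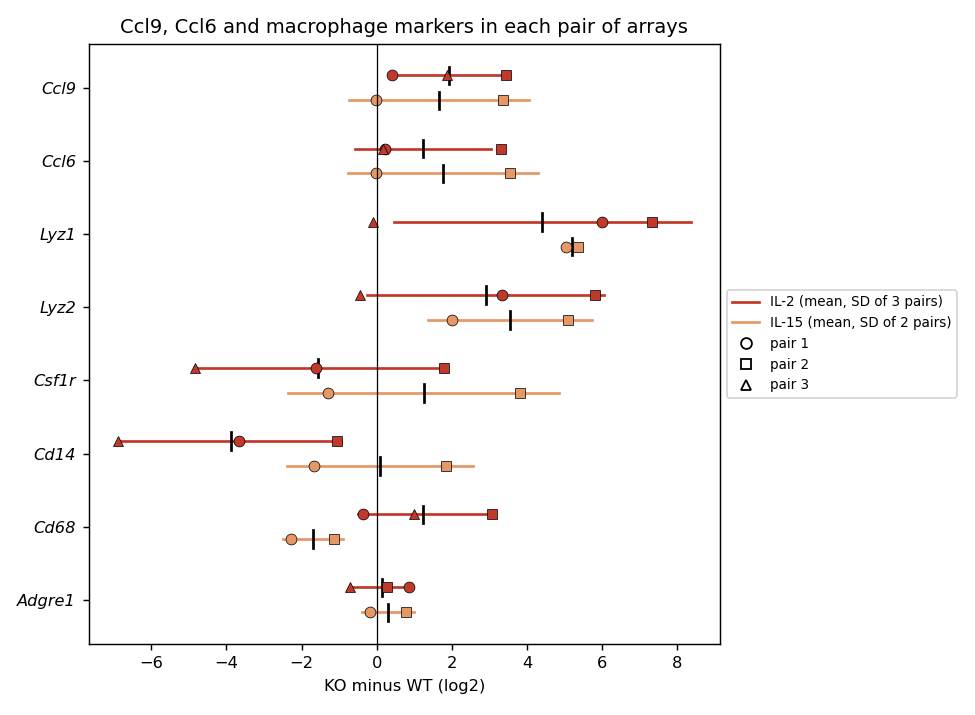
KO minus WT difference (log2) of Ccl9, Ccl6 and 6 macrophage markers in each numbered pair, for IL-2 (3 pairs) and IL-15 (2 pairs), with the mean as a tick and the SD over pairs as a line. Pair 2 holds the highest value of every gene shown in both cytokines, except Adgre1 in IL-2. That highest value is below 0 for Cd14 in IL-2 and for Cd68 in IL-15.

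The cytokine of the culture was compared within each genotype. Ccl3 and Ccl4 were lower in IL-15 than in IL-2 in both KO and WT NKC, and so was Ccl9. Ccl1 and Xcl1 fell in IL-15 in KO NKC, but not in WT NKC, where both had higher means in IL-15 without being called. Ccl5 was called in neither genotype. The contrast of these differences between genotypes is that of the KO effects between cytokines, in which no chemokine was called. Thus 5 of the 6 tested chemokines fell in KO and 3 in WT, while 46.1% of the 9391 tested genes were called in KO and 48% in WT. Over all tested genes, 2217 were higher and 2109 lower in IL-15 in KO (2012 and 2733 after quantile normalization), and 2758 were higher and 1754 lower in WT (2147 and 2457 after quantile normalization). The median of the 6 chemokines was -2.27 in KO and -0.49 in WT, against -0.08 and 0.18 over all genes.

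Ccl4 averaged 8.72 ± 0.30 in IL-15 and 11.09 ± 0.39 in IL-2 in KO NKC, a 5.17-fold fall (-2.37, interval -3.05 to -1.70, adjusted p = 0.00035). It averaged 8.63 ± 0.30 in IL-15 and 10.81 ± 0.39 in IL-2 in WT NKC, a 4.53-fold fall (adjusted p = 0.000503). The 4 IL-15 arrays of Ccl4, up to 8.93, were all below the 6 IL-2 arrays, the lowest of which was 10.40. For Ccl3 the fall was 4.06-fold in KO (-2.02, adjusted p = 7.93e-05) and 3.05-fold in WT (-1.61, adjusted p = 0.0002). Ccl3 in KO NKC in IL-15 (11.97 ± 0.25) and in WT NKC in IL-2 (12.40 ± 0.14) were neighbours in the order of the groups, below KO in IL-2 and above WT in IL-15, and no test compared them directly.

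Ccl9 was at least 8.43-fold lower in IL-15 in KO (-3.34, adjusted p = 0.00515) and at least 2.25-fold lower in WT (-3.09, adjusted p = 0.00708). The WT call was lost without IL-15 pair 2 (-2.25, adjusted p = 0.058). With the mean of both Ccl9 probe sets the differences were -1.93 in KO and -2.04 in WT.

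Xcl1 averaged 10.69 ± 0.83 in IL-15 and 12.86 ± 0.62 in IL-2 in KO NKC, a 4.53-fold fall (-2.18, adjusted p = 0.0102). In WT NKC it averaged 11.20 ± 0.83 in IL-15 and 10.17 ± 0.62 in IL-2 (1.03, interval -0.21 to 2.28, adjusted p = 0.14). Ccl1 was at least 12.3-fold lower in IL-15 in KO (-4.27, adjusted p = 0.00812), and in WT it averaged 6.83 in IL-15 and 4.90 in IL-2 (1.93, interval -0.39 to 4.26, adjusted p = 0.14). The order of the Xcl1 group means was KO in IL-2, WT in IL-15, KO in IL-15 and WT in IL-2, and the arrays of each of the lower 3 groups overlapped with those of its neighbour. The KO calls of both genes were lost without IL-15 pair 2, with an adjusted p of 0.087 for Xcl1 (-1.59) and 0.0617 for Ccl1 (-3.06).

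Ccl5 kept the same order of genotypes in both cultures. Its group means were 14.51 in KO in IL-2, 14.32 in KO in IL-15, 12.84 in WT in IL-15 and 12.21 in WT in IL-2. Neighbours of the same genotype differed by -0.19 in KO (interval -1.21 to 0.82) and 0.63 in WT (interval -0.39 to 1.65), both IL-15 minus IL-2.

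**Figure D4:**
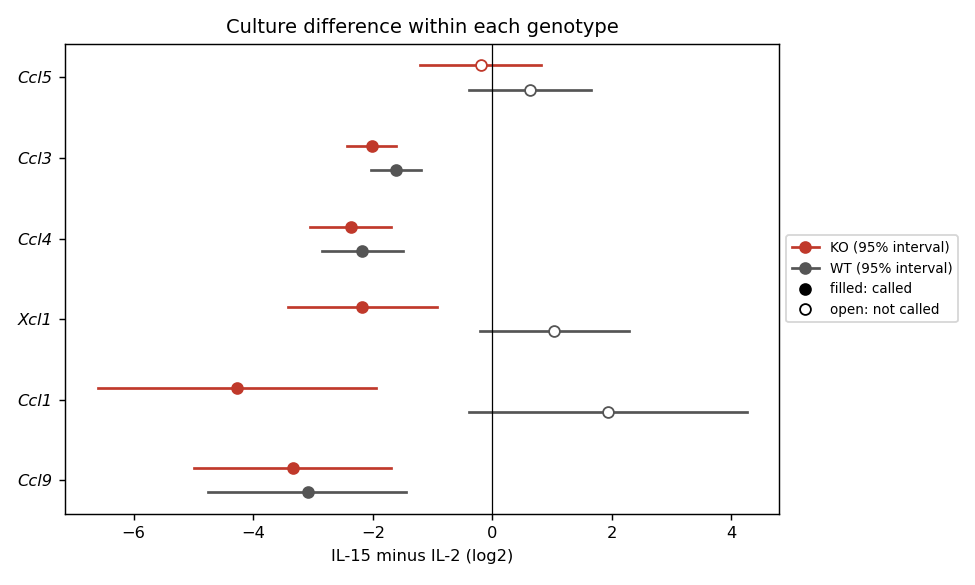
IL-15 minus IL-2 difference (log2) of the 6 tested chemokines in KO and in WT NKC, with 95% intervals of the fit and filled points for called genes. Ccl3, Ccl4 and Ccl9 are filled and below 0 in both genotypes, Xcl1 and Ccl1 in KO alone, and Ccl5 in neither.

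These comparisons between cultures have p-values that are too small, since the removal of differences between pairs also lowered the spread within groups. Xist is expressed from the inactive X chromosome of female cells. It was 14.3 to 14.7 on the IL-15 arrays and 4.64 to 5.37 on the IL-2 arrays. Sex and culture therefore cannot be told apart, also in the KO effect in IL-15 minus that in IL-2.

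The tested genes whose values ran most closely with each chemokine were found by Pearson correlation over the 10 arrays, which share 4 groups and mirrored pairs, so that the high coefficients are a description only. For Ccl3 they were Tor2a (0.999), Szrd1 (0.994) and Snx15 (0.993). For Ccl4 they were Atp5mpl (0.993), Tbl2 (0.991) and Ttll12 (0.990). For Ccl5 they were Atxn2 and Ankrd13a (0.988 each) and Wdr6 (0.987). For Ccl9 they were Dipk1b (0.994), Ebp (0.990) and Pkn3 (0.989). Ccl1 ran with Unc50 (0.973), Trappc3 (0.972) and Hes6 (0.970), and Xcl1 with A930005H10Rik (0.984), Rad51c (0.978) and 9430015G10Rik (0.969). No chemokine or chemokine receptor was among these 18 genes.

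Of the receptors through which these chemokines act, 4 were analysed here. Ccr1, which binds Ccl3, Ccl5, Ccl6 and Ccl9, was lower in KO NKC in IL-2, where it gave 2.25, 3.27 and 2.86, against 6.24, 5.22 and 5.63 in WT NKC. The WT arrays alone reached log2 5, and the fall was at least 1.62-fold (KO effect -2.91 ± 1.03, adjusted p = 0.00588). In IL-15 the means were 3.09 in KO and 3.28 in WT. Ccr3, Ccr8 (the receptor of Ccl1) and Xcr1 (the receptor of Xcl1) stayed near the bottom of the scale, with highest values of 2.28, 1.92 and 2.13.

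Of 22 chemokine receptors named, 9 were tested, of which 3 rose and 2 fell in KO NKC in IL-2, with a median of 0.02, beside 19.7% called and a median of 0.11 over all tested genes. The 2 that fell, Ccr1 and Ccr1l1, reached log2 5 on the WT IL-2 arrays alone. They passed the filter only through the group where they were high, so their falls are a description. The calls of Cxcr3 and Ccr1 held without any 1 of the 5 pairs. In IL-15 none was called by limma, and 1 had an unadjusted p under 0.05. Cxcr3, a receptor of interferon-induced chemokines on activated lymphocytes, had the highest rise. It averaged 13.32 in KO and 9.45 in WT NKC in IL-2 (3.88 ± 0.43, 14.7-fold, adjusted p = 0.00132), and 14.00 in KO and 12.55 in WT NKC in IL-15 (1.45, adjusted p = 0.106). The atypical receptor Ccrl2 (8.16 in KO, 6.17 in WT, adjusted p = 0.0287) and Cxcr4, the receptor of Cxcl12 (6.38 in KO, 4.34 in WT, adjusted p = 0.0439), rose as well. The Ccrl2 call was lost without pair 1 and without pair 2. The Cxcr4 call was lost without any 1 pair other than IL-2 pair 1. Cxcr4 reached log2 5 on the KO IL-2 arrays and on WT IL-2 array 1 (5.26). It too passed the filter only through the group where it was high, so its rise is a description. Ccr1l1, a relative of Ccr1, had the deepest fall, with means of 2.20 in KO and 6.33 in WT (at least 2.51-fold, adjusted p = 0.0108, or 0.062 without pair 1).

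Of 28 other chemokine ligands named, 4 were tested and 23 stayed under log2 5 on every array. Among these 23 were Ccl2, Ccl7, Ccl8, Ccl11 and Ccl12, the neighbours of Ccl1, with a highest value of 3.15. Cxcl10, a ligand of Cxcr3, was the only one called. It averaged 7.30 in KO and 4.60 in WT NKC in IL-2, a rise of at least 4.93-fold (2.70 ± 1.24, adjusted p = 0.0104, or 0.0716 without pair 1). In IL-15 it averaged 5.02 in KO and 4.49 in WT (adjusted p = 0.782). Cxcl1, a neutrophil attractant, had a KO effect of -0.40 ± 0.09 in IL-2 (adjusted p = 0.254). In IL-15 pair 2 the platelet chemokine Pf4 reached 7.36 in KO and 1.40 in WT, where the WT value is under log2 5, and it was not called (adjusted p = 0.442).

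**Figure D5:**
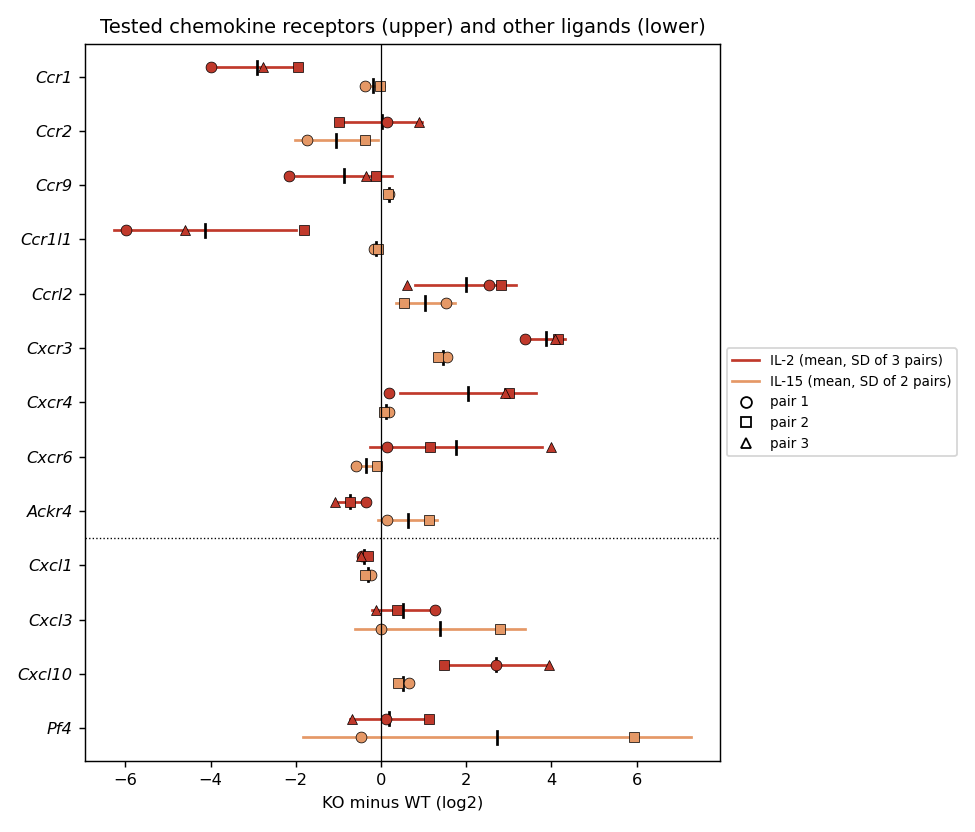
KO minus WT difference (log2) of the 9 tested chemokine receptors (above the dotted line) and the 4 other tested chemokine ligands (below it) in each numbered pair, with the mean as a tick and the SD over pairs as a line. In IL-2 every pair of Cxcr3 and Cxcl10 lies above 0 and every pair of Ccr1 and Ccr1l1 below 0.

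Products of NKC beside chemokines were examined as a further list, namely cytokines and Gzmb (granzyme B). Gzmb is a protease and not a cytokine, and it was tested and not called in IL-2. Of 16 named, 9 were tested, and 5 rose and 0 fell in KO NKC in IL-2, with a median of 1.67, beside 10.5% that rose and a median of 0.11 over all tested genes. Tnfsf14 (LIGHT) had the highest rise, with 8.20 in KO and 3.15 in WT (5.05 ± 0.18, at least 9.19-fold, adjusted p = 0.00293), and its difference was 2.94 with the mean of its probe sets. Ifng, the interferon of NKC, averaged 11.72 in KO and 9.99 in WT (3.31-fold, adjusted p = 0.015). Lta, Csf2 and Tnfsf10 (TRAIL) were the others. Csf2 reached log2 5 on the KO IL-2 arrays alone, and Lta on these and on WT IL-2 array 1 (5.43). Tnfsf14 reached it on the KO arrays and on WT IL-15 array 2 (5.34). These genes passed the filter only through the groups where they were high, so their rises are a description. Without pair 1 the 2 calls were Lta and Tnfsf14. In IL-15 none was called by limma, and 2 had an unadjusted p under 0.05.

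Of 31 transcription factors known to act on chemokine or cytokine genes, 30 were tested, and 7 rose and 1 fell in KO NKC in IL-2, with a median of 0.14. Over all tested genes 19.7% were called, 10.5% rose and the median was 0.11. The share called in this list was not far from that background, while the share that rose was above the 10.5%. Maf had the highest rise (12.62 in KO, 9.64 in WT, 7.86-fold, adjusted p = 0.00297). Klf13, known to act on Ccl5 in T cells, averaged 10.46 in KO and 8.93 in WT (2.90-fold, adjusted p = 0.0292). Tbx21 (T-bet), Nfatc1, Irf1, Runx1 and Egr2 rose as well. Without pair 1 or without pair 2, Maf was the 1 factor of the list that rose. Irf8 fell 5.59-fold, with 12.21 in KO and 14.69 in WT (adjusted p = 0.00763, or 0.0568 without pair 1). In IL-15 the sole call was Irf4, with 3.59 in KO and 6.37 in WT (adjusted p = 0.0363). That call was lost without any 1 of the 5 pairs, at adjusted p-values of 0.0509 to 0.226.

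Some markers of further cell types also moved with genotype in the same arrays. In KO NKC in IL-2 the mast cell and basophil protease Mcpt8 averaged 6.82 against 13.46 in WT (adjusted p = 0.0048), and the granulocyte protease Ctsg 5.29 against 12.85 (adjusted p = 0.0055). In IL-15 both fell too, with 2.55 in KO and 9.58 in WT for Mcpt8 and 1.40 in KO and 9.64 in WT for Ctsg (adjusted p = 0.0363 each), although no gene at all was called without IL-15 pair 1. In IL-2, 2 of the 4 tested mast cell and basophil markers fell (1 without pair 1), 1 of the 2 tested granulocyte markers rose (Mmp9) and 1 fell. In the same comparison 2 of 6 tested dendritic cell markers rose (Cd74, H2-Aa), as did 1 of 5 tested T cell markers (Bcl11b) and both tested B cell markers (Ighm, Blk). Beside these small counts, 19.7% of all tested genes were called in IL-2 and 10.5% rose. Blk reached log2 5 on the KO IL-2 arrays alone, and Cd74 on KO arrays alone. Both passed the filter only where they were high, so their rises are a description. H2-Aa was not called without any 1 of the 3 IL-2 pairs, and Ighm was not called without pair 1. Many defining markers stayed under log2 5 on every array: 6 of the 8 B cell markers named (Cd79a, Cd79b, Ms4a1, Pax5, Cd22 and Ebf1), 9 of the 11 granulocyte markers, among them S100a8, S100a9 and Mpo, 5 of the 9 mast cell and basophil markers, 5 of the 11 dendritic cell markers and 6 of the 11 T cell markers. The summed level of the mast cell and basophil markers was 10.88 to 11.63 (log2) in KO and 12.92 to 14.74 in WT NKC in IL-2, and that of the granulocyte markers 8.37 to 9.50 in KO and 11.17 to 13.86 in WT, where Ctsg alone had 13.57, 11.12 and 13.85. That of the dendritic cell markers was 9.33 to 11.29 in KO and 7.94 to 9.77 in WT, and that of the B cell markers 11.17 to 11.19 in KO and 8.82 to 8.95 in WT, close to the means of Ighm alone (10.95 in KO, 8.69 in WT). Whether such cells were present in the cultures, and any part of theirs in the chemokine values, was not tested.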

How the data were processed

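RNA was measured on 10 one-colour arrays with 45101 probe sets. The deposited values are log2 signals, for which the authors used GC-RMA in Partek (versions: not given in the sources used here), and they were used without further scaling. The table held 117 values above 16 and 10 below 0.

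Groups and array numbers came from the labels. For each probe set, the KO and WT arrays of one number summed to the same value within a cytokine, with spreads of at most 0.00014 (IL-2) and 0.00013 (IL-15), against a median gap of 0.0965 (IL-2) and 0.0852 (IL-15) with crossed numbers. Deviations of same-numbered arrays correlated at -1. Differences between pairs had thus been removed before deposit, and the pair was therefore a block in each fit of KO against WT (3 residual degrees of freedom). IL-15 and IL-2 were compared without a block (6).

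Probe sets were named through the platform annotation, in which 34958 had 1 symbol, 932 several and 9211 none. A gene was represented by the single-symbol probe set with the highest mean and tested where that reached log2 5 on at least 2 arrays (9391 of 18194 genes). Models were fitted to all genes with limma 3.58.1 in R 4.3.3, with Benjamini-Hochberg adjustment, and were tested on simulated data. Genes were called at an adjusted p under 0.05 and 1.5-fold, and genes are said to have risen, fallen or changed only where called. Where the dimmer group averaged under log2 5, the fold is a lower limit against log2 5. Intervals are 95% intervals of the fit. In 13 alternatives the block, scaling, filter, probe set rule, thresholds and each pair were varied.

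Genes named were the chemokines, the called genes with the highest rise and the deepest fall of each related list, and the 3 genes most like each chemokine; further genes of the lists were named after their values were seen. The chemokines and the lists were chosen with earlier results of these data known. RefSeq (GRCm38.p6) gave gene names, gene order and promoter sequences.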

Additional observations from a re-analysis of the deposited data

Results flagged for a closer look

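The mean KO effect of Ccl1 had opposite signs in the 2 cytokines. The pair differences were 4.18, 5.58 and 1.40 in IL-2 and -0.06 and -4.91 in IL-15. Pair 1 in IL-15 was near 0, so the negative mean there came from pair 2, where the KO value (3.13) was under log2 5. Sex, as read from Xist, and culture cannot be told apart here. The difference, IL-15 minus IL-2, was -6.20 (95% interval -10.1 to -2.31), with an adjusted p of 0.301 by limma, so it did not pass the test.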

How the results depend on the processing

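The count of genes called in KO versus WT in IL-2 was 1851. It was 3803 with no replicate block, 842 with no filter on low values, 2830 with every probe set on its own, 3391 at the thresholds of the methods (unadjusted p), and 537 to 1525 without 1 pair (537 without pair 1 and 1026 without pair 2). Of the chemokines, 4 were called there, against 1 with no filter and 0 to 4 without 1 pair (0 without pair 1). In IL-15, 122 genes were called, against 1321 with no replicate block, 0 with no filter, 44 with the mean of the probe sets of a gene, 1269 at the thresholds of the methods and 0 to 95 without 1 pair (0 and 11 without IL-15 pairs 1 and 2, and 12 without IL-2 pair 1). The 0 chemokines called in IL-15 became 1 with no replicate block and 2 at the thresholds of the methods. For the difference between the KO effects, 0 genes became 1157 with no replicate block, 4 with a filter at log2 6, 1106 at the thresholds of the methods and 0 to 1 without 1 pair. There, 0 chemokines became 2, Ccl1 and Xcl1, with no replicate block (adjusted p = 0.0298 and 0.0329) and also 2 at the thresholds of the methods. In IL-15 versus IL-2, testing every probe set gave 7490 calls in KO against 4326, and 7805 in WT against 4512. The 5 chemokines called in KO were 3 to 5 without 1 pair (3 without IL-15 pair 2).

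The sign turned for some values that were not called. Without 1 pair, the KO effect of Ccl4 ranged over -0.12 to 0.64 in IL-2 and -0.33 to 0.51 in IL-15, that of Ccl9 in IL-15 over -0.03 to 3.35 and that of Xcl1 in IL-15 over -1.69 to 0.66. The difference between the KO effects ranged over -0.62 to 0.22 for Ccl4 and -1.94 to 1.44 for Ccl9, which had 0.11 with the mean of its probe sets. Ccl5 in IL-15 versus IL-2 in KO ranged over -0.40 to 0.19. The cause was not tested.

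With no filter, more genes enter the adjustment, and Ccl1, Ccl5 and Xcl1 had adjusted p-values of 0.216, 0.11 and 0.121 in IL-2. Ccl1 had 0.0581 with the mean of the probe sets of a gene. Quantile normalization moved the median of all genes by 0.11 in the difference between KO effects, -0.12 in IL-15 versus IL-2 in KO and -0.23 in WT. With quantile normalization and with arrays centred on their medians, the counts of chemokines called stayed at 4 in IL-2, 5 in KO and 3 in WT. Arrays carry no depth, and their number limits the precision.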
